A study of Mus musculus with 27 samples.

Results

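Histone genes were followed by class in polyadenylated RNA of mouse morulae: the genes of the replication-dependent clusters, and the linker and variant genes that lie outside them. A gene row was a member if its symbol began with H1f, H2a, H2b, H3, H4 or the older Hist1h to Hist4h, and 112 of 55367 gene rows did. Of these, 67 were cluster genes, 34 lay outside the clusters, 10 were pseudogene rows and 1 was an antisense row. MacroH2A rows do not carry such a symbol and were not members. Because many rows have new symbols, a gene was placed in a cluster when RefSeq (GRCm38.p6) or the file gave it a Hist1h to Hist4h name. Of the cluster genes, 54 are on chromosome 13, 10 on chromosome 3, 2 on chromosome 11 and 1 on chromosome 6.

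The RNA came from wildtype morula blastomeres collected at E2.75, late on the third day of development, as pools of 15 to 20 embryos. There were 9 groups of 3 libraries. In the inhibitor family, embryos were treated in vitro from embryonic day 2.5 with Vehicle, SAHA (500 nM), TSA (50 nM) or A485 (10 uM). SAHA (vorinostat) and TSA (trichostatin A) are hydroxamic acids that block histone deacetylases, and A485 blocks the acetyltransferases p300 and CBP. In the siRNA family, injection at embryonic day 0.5 was with siControl, siP300, siKat6a, siKat6b or siComb, and embryos then grew in KSOM, an embryo culture medium. The 4 names other than siControl give p300, the acetyltransferases Kat6a and Kat6b, and a combination whose members the labels do not list. Each family was compared with its own control, and the labels give no strain. They do not say whether the 3 libraries of a group came from separate cultures, so p-values measure the spread between these samples.

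Histones package DNA into nucleosomes, with H2A, H2B, H3 and H4 in the core and H1 as the linker. Cells make most core histone in S phase from clustered genes, whose mRNAs end after a short stem-loop and carry no poly(A) tail. The stem-loop is bound by Slbp, the stem-loop binding protein. Variant genes such as H3f3a, H3f3b and H2az1 are transcribed through the cell cycle and make ordinary polyadenylated mRNA. Libraries primed on poly(A) therefore report variant genes directly, and of the cluster genes only what carries a tail, so amount and tailing of an RNA cannot be told apart here.

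The stem-loop was searched for in the annotated bases after the stop codon (GENCODE vM21, GRCm38) by its 16-base consensus: GG, any pair of bases, CTTTT, any base, AG, any pair of bases and CC. It was found in 44 of 67 cluster genes. Another 17, with under 60 annotated bases there, gave no match and were counted apart, and 6 with longer stretches gave none. Outside the clusters 2 of 34 genes held it, H2ax and H2bfm. The sequences below, for genes whose values the results turn on, are read in the sense of the RNA with T for U. The capitals mark the motif, whose position on GRCm38 is given in the next sentences.

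H1f2: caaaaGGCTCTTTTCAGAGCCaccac
H2ac8: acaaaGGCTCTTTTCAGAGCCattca
H2bc11: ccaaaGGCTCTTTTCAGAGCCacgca
H2bc12: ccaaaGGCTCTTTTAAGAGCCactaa
H3c1: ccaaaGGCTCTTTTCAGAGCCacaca
H4c9: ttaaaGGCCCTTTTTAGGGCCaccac
Hist1h4n: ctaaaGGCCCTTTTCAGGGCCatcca
H2ax: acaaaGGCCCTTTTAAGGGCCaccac

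The motif lies at chr13:23739512-23739527 (+) in H1f2, chr13:23570668-23570683 (-) in H2ac8 and chr13:22043638-22043653 (+) in H2bc11. It lies at chr13:22036300-22036315 (+) in H2bc12, chr13:23761890-23761905 (-) in H3c1 and chr13:22040966-22040981 (-) in H4c9. In Hist1h4n it is at chr13:21831798-21831813 (-), and in H2ax at chr9:44335240-44335255 (+). Each site is exonic, in the annotated 3′ UTR. The form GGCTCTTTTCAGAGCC was the commonest, in 27 of the 46 genes with the motif. What the annotation places after the loop differed: 23 bases in H2bc11, 31 in Hist1h4n, 151 in H2ac8, 330 in H4c9 and 840 in H1f2. Of the 44 cluster genes, 22 had more than 100 annotated bases after the loop, and 16 had AATAAA or ATTAAA there, the usual poly(A) signals. H2bc4, the most abundant cluster gene of 6 of the 9 groups, held no loop in its 742 annotated bases.

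Start-site windows of RefSeq (GRCm38.p6, 300 bases, 250 of them upstream) were at hand for 87 of the genes of both classes, with 55 windows for the cluster genes and 33 for the others. CCAAT, on either strand, was in 48 of 55 cluster windows, against 37.4% of all 32851 windows. It was in every window of cluster H1 (6), H2A (15), H2B (14) and H3 (10) genes and in 3 of 10 of H4. TATAAA was in 31 of 55, against 13.6% of all windows. The octamer ATTTGCAT was in 7 of 14 H2B and 7 of 15 H2A windows and in none of the other cluster windows, against 1.74% of all. AAACAC, a motif of H1 gene promoters, was in 6 of 6 cluster H1 windows, against 16.3% of all. None of these 4 motifs contains another. Below are the bases shared by the divergent genes H2ac11 and H2bc11, which both rose with SAHA, and the upstream bases of H1f5 and H2ac8. Capitals mark matches of these 4 motifs on either strand.

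H2ac11 and H2bc11, chr13:22042950-22043197 (+): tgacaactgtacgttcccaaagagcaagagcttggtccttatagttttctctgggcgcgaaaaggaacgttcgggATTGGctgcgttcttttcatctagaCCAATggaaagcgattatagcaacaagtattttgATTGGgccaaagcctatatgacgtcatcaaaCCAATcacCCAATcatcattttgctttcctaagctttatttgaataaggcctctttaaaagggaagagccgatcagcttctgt
H1f5, chr13:21780626-21780755 (-): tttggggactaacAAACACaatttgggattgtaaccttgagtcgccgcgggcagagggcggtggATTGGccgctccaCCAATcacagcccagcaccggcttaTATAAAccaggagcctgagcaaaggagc
H2ac8, chr13:23571221-23571370 (-): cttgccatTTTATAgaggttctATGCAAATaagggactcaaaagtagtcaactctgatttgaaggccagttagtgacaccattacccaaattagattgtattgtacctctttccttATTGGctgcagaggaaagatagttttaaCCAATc

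The H2ac11 and H2bc11 stretch holds 5 CCAAT letters in either orientation and no octamer, and the H1f5 and H2ac8 stretches hold 2 each. A match here is a description of the letters.

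Libraries held 7557591 to 11988857 counts. Mitochondrial genes took 0.997 to 1.20% of counts in Vehicle, 1.61 to 2.16% in SAHA, 2.36 to 2.62% in A485 and 2.51 to 3.57% in TSA. In the siRNA family they took 1.78 to 2.45% in siControl, siKat6a and siKat6b, and 4.86 to 6.99% in siP300 and siComb. Kat6a (15.7 to 18.2 CPM in siControl) was 10.3 to 13.2 CPM in siKat6a, and Kat6b (100.6 to 113.9) was 66.9 to 78.7 in siKat6b. Neither passed edgeR's test (adjusted p = 1 and 0.496), although the groups did not overlap. Ep300 in embryos labelled siP300 (11.2 to 27.8 CPM) overlapped siControl (22.8 to 28.8; edgeR adjusted p = 0.259), so its RNA level does not check that label. In siComb, Kat6a and Kat6b were lower (edgeR adjusted p = 0.022 and 0.00815) and Ep300 was not called (0.722). Of 11 markers of the morula and early embryo, Dppa3, Zscan4c and Zscan4d among them, 10 were tested, and Sox2 was at 0 in every library. The list is called morula markers below. Cumulus markers summed to 8.07 to 31.2 CPM except in siP300 and siComb (38.6 to 104.9), and blood and immune markers summed to 122.3 to 250.2 CPM there against 18.5 to 31.2 in siControl. Most of the blood and immune sums in siP300 and siComb was Cd74 (75.7 and 96.3 CPM on average), Hba-a1 (67.6 and 45.8) and Hba-a2 (18.6 and 23.0). With Vehicle, SAHA and TSA the blood and immune markers summed to 13.3 to 24.8, 33.4 to 71.0 and 80.0 to 165.3 CPM. With A485 they summed to 10.95 to 17.02 CPM. Ptprc was near 0 and Hbb-bs was at 0 in every library. Oviduct and stromal markers summed to 275.4 to 455.2 CPM with the inhibitors against 1100 to 1266 with Vehicle, nearly all of it Epcam, an epithelial adhesion gene that embryo cells also express (mean 1141 CPM with Vehicle). Pdgfra of the same list was also lower, at 15.5 CPM on average with Vehicle against 3.90 with SAHA, 0.175 with A485 and 3.38 with TSA. The scarce stromal genes Col1a1 and Dcn did not go that way, at 0.0680 and 0 CPM on average with Vehicle and up to 2.24 and 0.366 with the inhibitors. The part of these in the histone results was not tested.

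The classes differed widely in level. Levels are CPM, scaled by edgeR's TMM factors, and the number of libraries, 3 a group, limits their precision. Summed over the 34 genes outside the clusters, the Vehicle libraries held 5928, 5810 and 7074 CPM, and the siControl libraries 5770, 5383 and 6682. Over the 67 cluster genes they held 102.8, 109.0 and 113.4, and 230.0, 162.8 and 265.8. The clusters thus gave far less polyadenylated RNA than the genes outside them in every control library. H3f3b, 1 of the 2 genes for the replacement histone H3.3, took 50.2% of the outside sum in Vehicle and H2az1, for the variant H2A.Z, 32.0%. Per kilobase of exon H2az1 led with 1131 CPM in Vehicle and H3f3b followed with 1057. Then came H2ax with 266.7, whose protein is phosphorylated at DNA breaks, and H3f3a with 129.3. In the clusters H2bc4 took 16.7% of the Vehicle sum and 37.0% of the siControl sum. Of the 67 cluster genes, 15 had at least 10 counts in every Vehicle library and 24 in every siControl library.

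**Figure D1:**
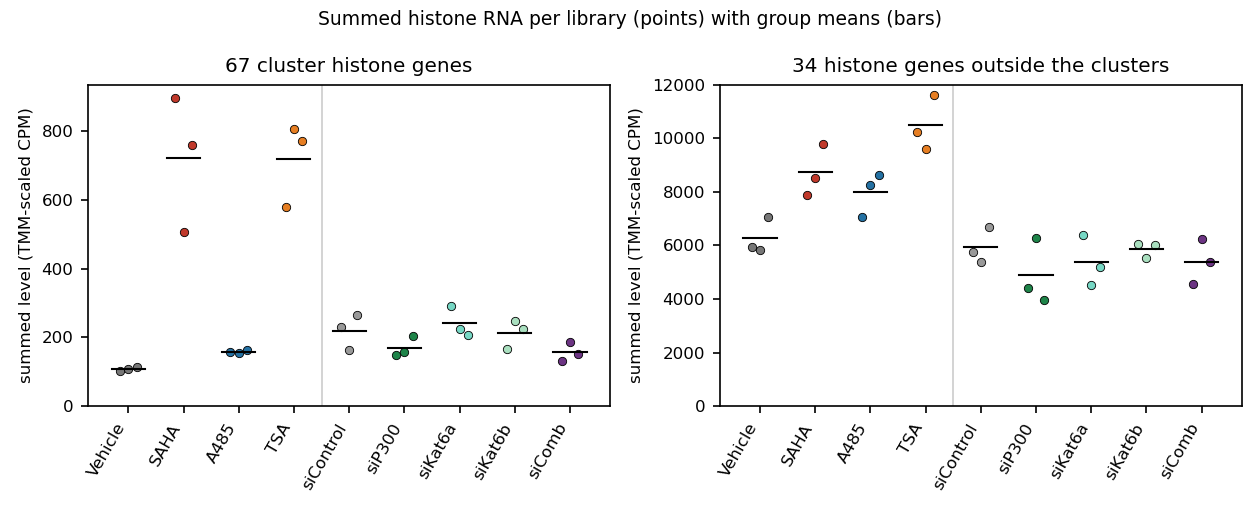
Summed level of the 67 cluster genes and of the 34 genes outside the clusters in TMM-scaled CPM (y axis) in each library (points) of the 9 groups (x axis), with group means as bars. The SAHA libraries (506.7 to 896.8) and TSA libraries (578.8 to 807.1) lie above every Vehicle library (102.8 to 113.4) in the clusters.

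SAHA against Vehicle asked what blocking deacetylases did to morula RNA. Polyadenylated RNA of cluster genes was several times more abundant: the 67 genes summed to 896.8, 506.7 and 761.6 CPM, against 102.8, 109.0 and 113.4 (6.66-fold between means, log2 2.74). The groups did not overlap, and the second SAHA library was the lowest. Every family moved this way, from 4.48-fold for cluster H2A (137.8 ± 25.9 against 30.8 ± 5.45, SD, n = 3) to 9.68-fold for cluster H3 (94.4 ± 30.2 against 9.75 ± 3.45). Outside the clusters the sum rose less, from 6271 ± 698.2 to 8724 ± 966.2 CPM (1.39-fold), again without overlap. These sums carry no test. Markers of the stage moved with them. MERVL, a retrotransposon of the early embryo (its MERVL-int row, in CPM of the library's gene counts without TMM scaling), was at 4517, 2181 and 4569 CPM with SAHA against 12.5, 14.3 and 244.6 with Vehicle, lowest in the same SAHA library. Zscan4c, an early embryo gene, averaged 1606 against 35.0 CPM (edgeR adjusted p = 0.00711). Of the 10 morula markers tested 2 were called higher and 6 lower, and the list summed to 11910 to 18550 CPM against 7499 to 9454. Most of that sum was Dppa3, Zscan4c and Zscan4d, at 10700, 1606 and 1789 CPM on average against 7364, 35.0 and 50.1. The other tested markers were lower on average. Gata3, a trophectoderm gene, was lower at 80.5 against 345.4 CPM (edgeR adjusted p = 1.20e-05). The part of these in the histone values was not tested. In pools of cells, fewer cells of a type and less RNA per cell cannot be told apart.

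edgeR's quasi-likelihood test (Benjamini-Hochberg adjusted p under 0.05 over 18297 genes) called 51 cluster genes higher and 0 lower, against 20.2% of all genes higher and 14% lower (34.2% in either direction). Only 58 of the 67 could be tested, and a gene high with SAHA alone passes the count filter for that reason. Over all 67, the mean was higher with SAHA in 63, and 4 had no count in any library. SAHA lay above Vehicle without overlap in 56 of 67 and below in 0, against 27.5% and 27.1% of genes tested. Among the 15 with at least 10 counts in every Vehicle library, a set chosen after the data were seen, 14 were called higher and 0 lower (median log2 2.19). Of 13173 genes under that rule 13% were called higher and 19.4% lower (median log2 -0.18).

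H2bc11, a core H2B gene, stood at 2.24, 0.801 and 0.854 CPM with Vehicle and at 88.8, 38.9 and 66.7 with SAHA (log2 5.66 ± 0.49 SE; edgeR adjusted p = 1.86e-06). Low in every Vehicle library and high in every SAHA library, it shares 50.4% of its 75-base words with Hist1h2bq, so reads may be split between them. H4c9 went from 6.32, 4.61 and 9.39 CPM to 104.9, 21 and 108.2 (log2 3.56 ± 0.48; edgeR adjusted p = 7.85e-05). Its second SAHA library was far below the other SAHA libraries and still above every Vehicle library. H2ac8 went from 9.38, 8.91 and 8.54 to 56.1, 41.2 and 48.6 CPM (log2 2.48 ± 0.23; edgeR adjusted p = 3.40e-06), with little spread in either group. The linker gene H1f1 went from 2.24, 3.91 and 2.13 to 49.4, 36.4 and 32.4 CPM, and H1f5 from 6.73, 5.61 and 9.82 to 36.2, 34.2 and 50. Both linker genes were called (edgeR adjusted p = 2.68e-06 and 4.07e-05), and 5 of the 6 cluster H1 genes were. H1f2, the sixth, stood at 8.26 ± 4.26 against 3.91 ± 0.339 CPM and did not pass (edgeR adjusted p = 0.0566). H2bc9, H3c1 and Hist1h4n, at most 1.00 CPM in any Vehicle library, were at 8.09 to 12.9, 6.16 to 18.9 and 7.73 to 14.2 CPM with SAHA. H3c7 had 0 counts with Vehicle and 202 with SAHA, so no fold is given for it. H2bc4, the most abundant with Vehicle, went from 23.3, 10.1 and 20.9 to 63.3, 29.5 and 61.8 CPM (log2 1.55 ± 0.36; edgeR adjusted p = 0.00422). With SAHA the largest share of the cluster sum was that of H4c9 (10.8%).

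Outside the clusters, 9 of 34 genes were tested, 6 were called higher and 1 lower, against 20.2% and 14% of all genes. H1f0, the linker histone associated with differentiated and resting cells, had the largest fold of these. It stood at 57.3, 57.3 and 77.7 CPM with Vehicle and 578.5, 600.7 and 919.8 with SAHA (log2 3.49 ± 0.26; edgeR adjusted p = 6.90e-07), with a wide gap between the groups. H1f10, another linker gene, was scarce and rose from 0.204, 0.401 and 0.427 to 5.62, 2.35 and 3.09 CPM (log2 3.41 ± 0.70; edgeR adjusted p = 0.00204). H2az2, the second H2A.Z gene, rose from 118.9, 132.2 and 152.2 to 252.4, 268.8 and 287.0 CPM (log2 1.04 ± 0.14; edgeR adjusted p = 8.16e-05). H2aj, a replication-independent H2A gene, rose from 92.5, 101.2 and 91.1 to 168.8, 175.5 and 196.7 CPM (log2 0.96 ± 0.17; edgeR adjusted p = 5.95e-04). H2ax fell, from 337.1, 397.7 and 372.4 to 210.3, 172.7 and 228.8 CPM (log2 -0.82 ± 0.19; edgeR adjusted p = 0.00446). It was the only member called lower with SAHA in either class. The H3.3 genes moved little: H3f3a was called at log2 0.44 and H3f3b at 0.51 (edgeR adjusted p = 0.0235 and 0.0294). The H3f3a call was lost without SAHA 1 or 2 or Vehicle 1 or 3 (adjusted p up to 0.0901) and with no count filter (0.0556). The H3f3b call was lost without SAHA 2 or 3 or Vehicle 1 or 2 (up to 0.122) and with all 27 libraries in 1 fit (0.0908). H2az1 stood at 2410 ± 198 against 2009 ± 144 CPM and was not called (edgeR adjusted p = 0.0847). Some alternatives did call H2az1 higher: limma-voom (adjusted p = 0.0136), and edgeR with the replicate block (0.0477) or with just the 2 groups (0.0185). H1f8, the linker gene of oocytes, was at 0 to 1.67 CPM and was not called.

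**Figure D2:**
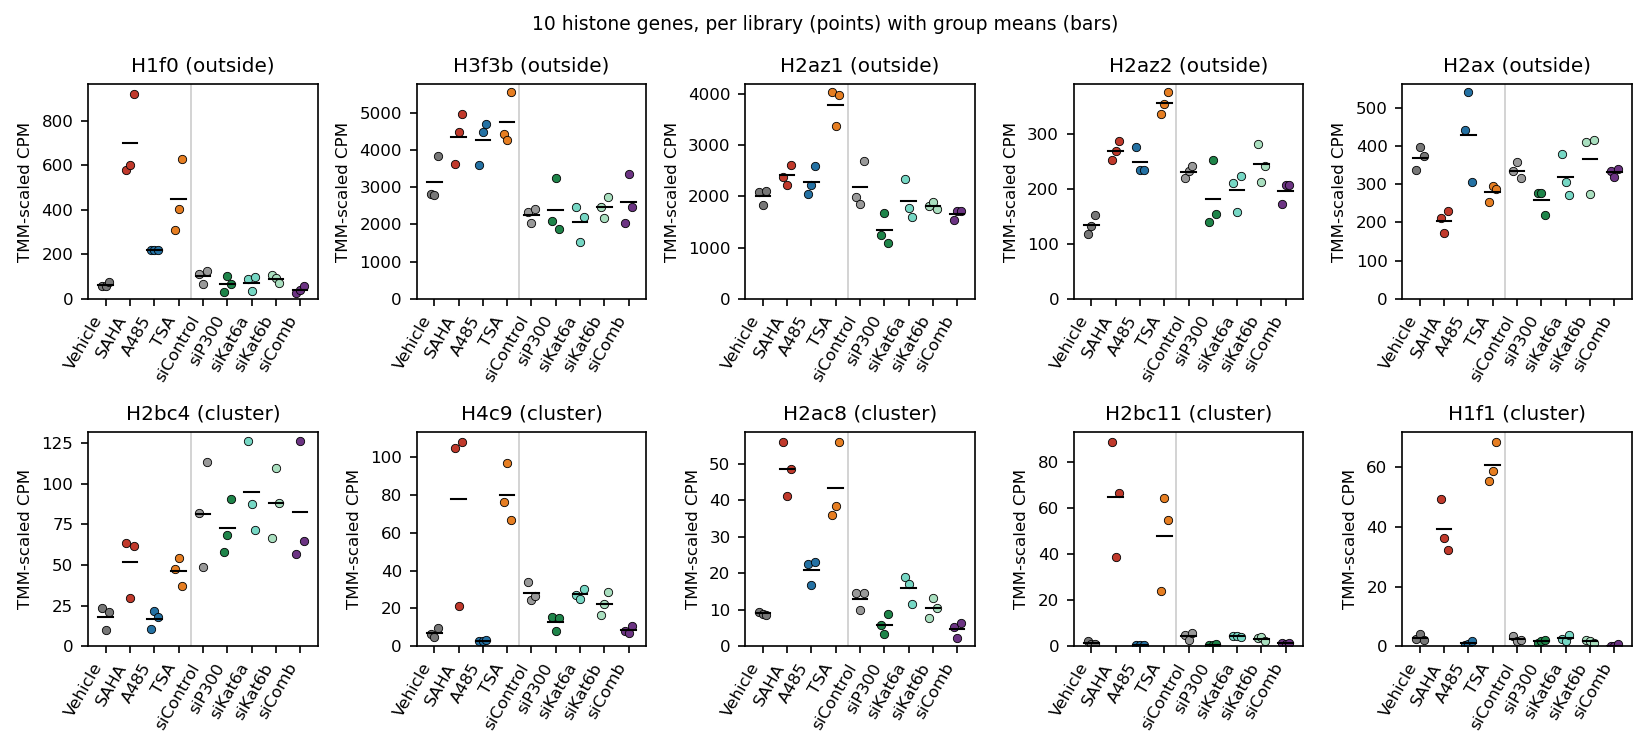
TMM-scaled CPM (y axis, from 0) of 5 genes outside the clusters and 5 cluster genes in each library (points) of the 9 groups (x axis), with group means as bars. H1f0 lies at 578.5 to 919.8 with SAHA against 57.3 to 77.7 with Vehicle, and H2ax at 172.7 to 228.8 against 337.1 to 397.7.

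TSA was given at 50 nM and SAHA at 500 nM, so their values stand side by side without a comparison of the compounds, and both share the Vehicle libraries. The cluster genes summed to 578.8, 807.1 and 772.1 CPM with TSA (6.64-fold over Vehicle, log2 2.73), and no library overlapped Vehicle. MERVL was at 9742, 8393 and 9195 CPM, and Zscan4c averaged 4029 (edgeR adjusted p = 0.0012). Of the 10 morula markers 3 were called higher and 7 lower. The list summed to 17870 to 28350 CPM, nearly all of it Dppa3, Zscan4c and Zscan4d (11700, 4029 and 6337 CPM on average). The other tested markers were lower on average, with Gata3 at 5.86 CPM against 345.4 with Vehicle. The part of MERVL and of these markers in the histone values was not tested. edgeR called 54 cluster genes higher and 0 lower of 58 tested, against 31.6% and 26.6% of all genes (58.1% in either direction). Over all 67 the mean was higher in 62 and lower in 1, Hist1h2ap (1.44 against 1.48 CPM, named after its values were seen), and TSA lay above Vehicle without overlap in 56 and below in 0, against 34.9% and 33.7% of genes tested. All 15 genes with at least 10 counts in every Vehicle library were called higher, against 20.3% of genes under that rule (36.4% lower). H4c9 stood at 76.3, 96.9 and 66.9 CPM (log2 3.63 ± 0.49; edgeR adjusted p = 2.33e-05). H1f1 stood at 55.6, 58.7 and 68.6 CPM (log2 4.52 ± 0.36; edgeR adjusted p = 2.09e-07), far above its Vehicle libraries. H2bc11 stood at 23.9, 64.5 and 54.6 CPM (log2 5.24 ± 0.49; edgeR adjusted p = 8.75e-07). H2bc4 stood at 47.3, 54.5 and 37.3 CPM (log2 1.42 ± 0.36; edgeR adjusted p = 0.00357). The first TSA library held the least H2bc11.

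Outside the clusters TSA raised 7 of 9 genes tested and lowered 0 by edgeR, against 31.6% and 26.6% of all genes. H1f0 was at 310.1, 403.3 and 627.8 CPM (log2 2.87 ± 0.26; edgeR adjusted p = 6.23e-07). H2az1 rose here, to 4040, 3370 and 3975 CPM from 2083, 1843 and 2102 (log2 0.98 ± 0.13; edgeR adjusted p = 2.01e-05). As 1 of the 2 most abundant histone rows, it made up 36.2% of the outside sum with TSA, which reached 10490 ± 1040 CPM (1.67-fold). H2az2 was at 336.8, 354.4 and 377.8 CPM and H2aj at 196.8, 191.9 and 230.8, and both were called (edgeR adjusted p = 1.34e-06 and 4.00e-05). H3f3a and H3f3b were called at log2 0.57 and 0.66 (edgeR adjusted p = 0.00267 and 0.00378). H2ax stood at 254.5, 294.8 and 286.8 CPM, below every Vehicle library but not called (edgeR adjusted p = 0.137).

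**Figure D3:**
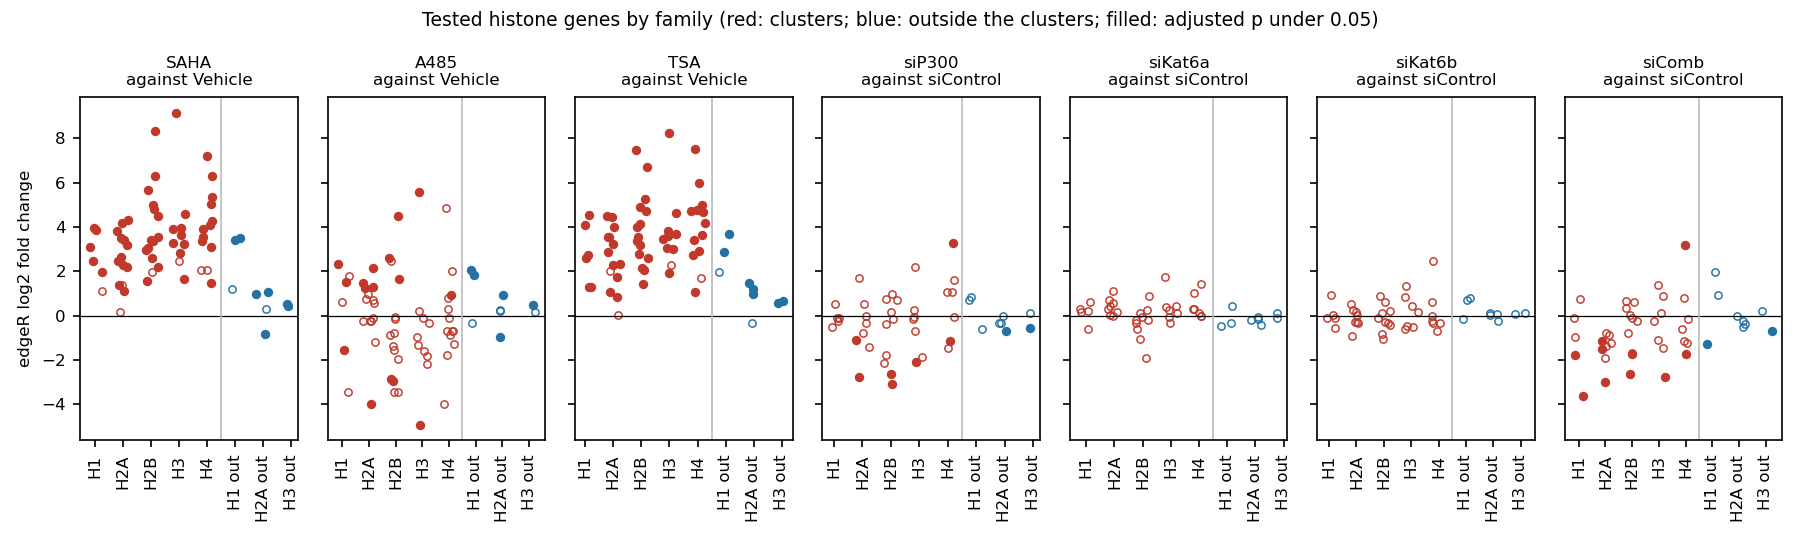
edgeR log2 fold change (y axis) of each tested cluster gene (red) and gene outside the clusters (blue) by family (x axis) in the 7 comparisons, filled where adjusted p is under 0.05. With SAHA and TSA no cluster gene is called lower, while with A485 11 are called higher and 5 lower.

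With A485, which blocks p300 and CBP, the cluster sum was higher, but single cluster genes were called no more often than genes at large. The sum was 158.0, 155.4 and 162.8 CPM against 102.8, 109.0 and 113.4 with Vehicle (1.46-fold), without overlap. Cluster H1 and H2A were higher in sum (33.2 ± 3.66 against 16.5 ± 1.05, and 67.5 ± 12.4 against 30.8 ± 5.45 CPM), both without overlap. Cluster H2B (28.4 ± 6.40 against 31.6 ± 5.72), H3 (6.17 ± 2.45 against 9.75 ± 3.45) and H4 (23.4 ± 4.99 against 19.8 ± 3.59) overlapped Vehicle. edgeR called 11 cluster genes higher and 5 lower of 58 tested, against 21.4% and 24.2% of all genes. In either direction 45.5% of all genes were called. limma-voom called 11 higher and 1 lower, and DESeq2 13 and 8, and their shares of all genes are not given here. Over all 67 the mean was higher in 24 and lower in 38, and the groups stood apart in 12 and 7, against 24% and 28.6% of genes tested. Of the 15 well-counted genes 6 were called higher and 2 lower, against 23.6% and 28.9% under that rule. All 10 morula markers tested were called lower with A485, and the list summed to 155.3 to 278.7 CPM against 7499 to 9454, whose part in these values was not tested.

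H1f4, a somatic linker gene, rose from 1.43, 2.40 and 1.71 to 9.10, 9.64 and 8.41 CPM (log2 2.32 ± 0.43; edgeR adjusted p = 5.74e-04). Every A485 library was above every Vehicle library, but H1f4 overlaps H2bc6 by 496 bases on the same strand, and their reads cannot be told apart there. H2ac8 rose from 9.38, 8.91 and 8.54 to 22.6, 16.6 and 23.0 CPM (log2 1.25 ± 0.23; edgeR adjusted p = 5.10e-04). H2ac15 was at 19.6, 18.5 and 19.4 CPM against 5.30, 11.2 and 7.47 (log2 1.29 ± 0.29; edgeR adjusted p = 0.00247). Hist1h2ao was at 23.3, 11.9 and 20.7 CPM against 5.10, 7.61 and 7.90 (log2 1.47 ± 0.29; edgeR adjusted p = 8.38e-04). H1f2 was at 8.09, 17.3 and 7.11 CPM against 4.28, 3.81 and 3.63 (log2 1.5 ± 0.42; edgeR adjusted p = 0.00998). That call rested on the second A485 library, without which log2 was 0.99 and adjusted p 0.0677. On the falling side, H1f1 went from 2.24, 3.91 and 2.13 to 0.505, 0.590 and 1.68 CPM (log2 -1.54 ± 0.42; edgeR adjusted p = 0.00769). H2bc12 went from 1.22, 4.81 and 1.49 to 0, 0.787 and 0.187 CPM (log2 -2.94 ± 0.74; edgeR adjusted p = 0.00516). H4c9 stood at 2.53, 2.56 and 2.99 CPM against 6.32, 4.61 and 9.39 and was not called.

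Outside the clusters A485 left 4 of 9 tested genes called higher and 1 lower, against 21.4% and 24.2% of all genes. H1f0 was at 218.6, 218.8 and 219.7 CPM, above every Vehicle library (log2 1.81 ± 0.25; edgeR adjusted p = 4.52e-05). H2az2 was at 277.2, 235.7 and 235.6 CPM (log2 0.93 ± 0.14; edgeR adjusted p = 1.15e-04). H2aj went the other way, to 51.6, 36.4 and 55.4 CPM from 92.5, 101.2 and 91.1 (log2 -0.96 ± 0.17; edgeR adjusted p = 3.81e-04). H3f3b (log2 0.47; edgeR adjusted p = 0.0334) and the scarce H1f10 (log2 2.04; edgeR adjusted p = 0.0294) were called, yet H3f3b lost its call without A485 2 or 3 or Vehicle 1 or 2 (adjusted p up to 0.131). H1f10 lost it without A485 1 or any 1 Vehicle library (up to 0.168), with the replicate block (log2 1.9, adjusted p = 0.0575) and by limma-voom (0.191). With all 27 libraries in 1 fit H3f3b was not called for A485 (0.0991). The outside sum, 7980 ± 823.9 CPM, overlapped Vehicle. H1f0 and H2az2 were called higher with each of the 3 inhibitors, as were H3f3b and H1f10 with the lost calls given above, while H2aj was called higher with SAHA and TSA and lower with A485. The 3 contrasts share the Vehicle libraries.

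**Figure D4:**
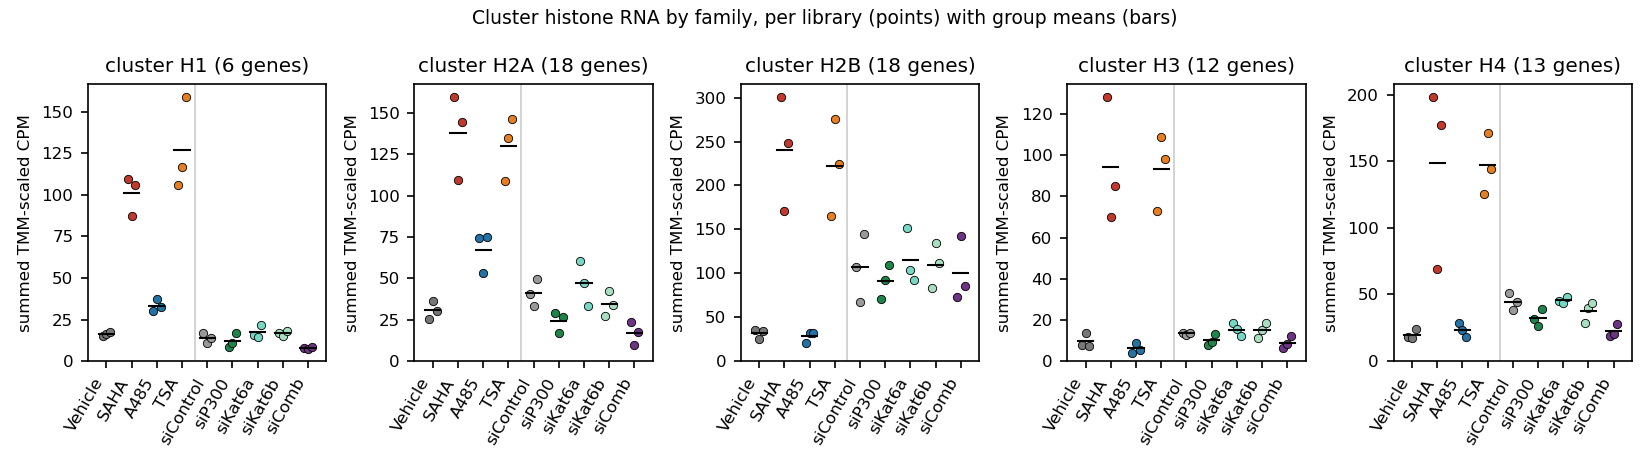
Summed TMM-scaled CPM (y axis, from 0) of the cluster genes of each family in each library (points) of the 9 groups (x axis), with group means as bars. With A485 the H1 and H2A sums lie above Vehicle, and with siComb the H1, H2A, H3 and H4 sums lie below siControl.

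The siRNA family addressed the acetyltransferases by name. In embryos labelled siP300 the cluster sum was 147.6, 156.5 and 204.9 CPM, against 230.0, 162.8 and 265.8 in siControl, and the groups overlapped. edgeR called 6 cluster genes lower and 1 higher of 37 tested, against 15.7% and 19.7% of 19180 genes (35.4% in either direction). Over all 67 cluster genes the mean was lower in 42 and higher in 20, and the groups did not overlap in 11 and 2, against 22.6% and 25.7%. Of the 24 with at least 10 counts in every siControl library 6 were called lower and 0 higher, against 21% and 15.5% under that rule. Cluster H2A alone was lower without overlap, at 24.3 ± 6.54 against 41.1 ± 8.22 CPM. The size of the difference in cluster sums depends on scaling: library size alone, which moves the median log2 of all genes from 0.12 to 0.45, brought the cluster log2 ratio from -0.37 to -0.02. Of the 10 morula markers tested 0 were called higher and 8 lower in siP300, and the list summed to 3864 to 5749 CPM against 10280 to 15100 in siControl. Gata3 was at 74.5 against 243.7 CPM on average, and Dppa3 at 4371 against 10800. MERVL was at 151.5 to 914.6 CPM against 21.2 to 32.8. The part of these in the histone values was not tested.

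H4c9 stood at 15.5, 8.17 and 14.7 CPM in siP300 against 34.1, 24.4 and 26.5 in siControl (log2 -1.13 ± 0.27; edgeR adjusted p = 0.00461). H2bc11 fell from 5.0, 2.78 and 5.54 to 0.507, 0.570 and 0.968 CPM (log2 -2.66 ± 0.46; edgeR adjusted p = 3.96e-04). H2bc12 fell from 5.10, 2.98 and 4.21 to 0.507, 0.380 and 0.516 CPM (log2 -3.08 ± 0.72; edgeR adjusted p = 0.00361). All siP300 libraries were below all siControl libraries for these 3. H2ac8 was at 5.74, 3.23 and 8.78 CPM against 14.5, 9.93 and 14.5 (log2 -1.12 ± 0.39; edgeR adjusted p = 0.0358). That call was lost without siControl 1 or 3 or siP300 1 or 2 (adjusted p up to 0.138), with library size alone (0.161) and by limma-voom (0.0532). H2ac11, which shares its start region with H2bc11, and H3c3 were the other genes called lower (edgeR adjusted p = 0.00676 and 0.0303), and H4f16 was called higher (0.0374). H2bc4, at 58.3, 68.6 and 90.6 CPM against 82.0, 48.5 and 113.5, overlapped siControl and made up 42.7% of the cluster sum.

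Outside the clusters 2 of 9 tested genes were called lower in siP300 and 0 higher, against 15.7% and 19.7% of all genes. H2az1 was at 1253, 1682 and 1086 CPM against 1981, 1853 and 2698 (log2 -0.68 ± 0.20; edgeR adjusted p = 0.0133). H3f3a was at 364.4, 455.8 and 322.8 CPM against 571.8, 571.7 and 582.5 (log2 -0.57 ± 0.16; edgeR adjusted p = 0.0126). Both were lower in every siP300 library, and neither call held with library size alone (adjusted p = 0.0671 and 0.115). Without siP300 3 neither was called (0.0587 and 0.0566), nor was H2az1 without siControl 3 (0.0798). H1f0, which rose with every inhibitor, was at 29.4, 100.7 and 68.7 CPM against 112.9, 65.4 and 124.8 and was not called.

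siComb was compared with the same siControl libraries. The cluster sum was 130.6, 187.7 and 150.9 CPM and overlapped siControl through its second library. Of the 10 morula markers 2 were called higher and 7 lower, with a sum of 2286 to 3425 CPM against 10280 to 15100. Gata3 averaged 63.2 against 243.7 CPM and Zscan4c 28.1 against 0.393, and MERVL was at 61.8 to 990.3 against 21.2 to 32.8. Their part in the histone values was not tested. edgeR called 9 cluster genes lower and 1 higher of 37, against 17.1% and 19.6% of all genes (36.7% in either direction). Over all 67 the mean was lower in 46 and higher in 17, and the groups did not overlap in 20 and 1, against 25% and 26.5%. Of the 24 well-counted genes 9 were called lower and 0 higher, against 22.5% and 17.3% under that rule. H2bc4, at 56.7, 126.3 and 64.9 CPM, took 52.8% of this sum, and without it the log2 ratio of the sums went from -0.49 to -0.91. Cluster H1, H2A, H3 and H4 were each lower without overlap. For H2A the sums were 16.9 ± 7.13 against 41.1 ± 8.22 CPM. H4c9 was at 7.81, 7.05 and 10.8 CPM (log2 -1.73 ± 0.28; edgeR adjusted p = 1.77e-04). H1f5 fell from 4.69, 3.97 and 3.82 to 1.02, 0.927 and 1.64 CPM (log2 -1.79 ± 0.47; edgeR adjusted p = 0.00736). H1f1 was at 0, 0 and 0.547 CPM against 3.47, 1.59 and 2.10 (log2 -3.64 ± 0.90; edgeR adjusted p = 0.0048). H2ac8 was at 5.26, 2.23 and 6.29 CPM (log2 -1.50 ± 0.40; edgeR adjusted p = 0.00794). Hist1h2ao was called too, at 12.7, 3.89 and 7.48 CPM against 16.4, 15.0 and 22.4, but not with library size alone (adjusted p = 0.0869) or without siComb 2 or 3 or siControl 3 (up to 0.102).

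H3f3a was the gene outside the clusters called lower in both siP300 and siComb, at 316.0, 346.0 and 403.1 CPM in siComb (log2 -0.70 ± 0.16; edgeR adjusted p = 0.00343). Its siControl libraries lay within 571.7 to 582.5 CPM, above every siComb library. H1f0 was called lower in siComb, at 26.8, 40.4 and 57.1 CPM (log2 -1.29 ± 0.41; edgeR adjusted p = 0.0221). That call was lost without siComb 1 or 2 or siControl 1 or 3 (adjusted p up to 0.0963) and with library size alone (0.0512). H2az1 was at 1532, 1723 and 1726 CPM and was not called (edgeR adjusted p = 0.125). Of the 6 cluster genes called lower in siP300 and the 9 in siComb, 5 were in both: H2ac8, H2bc11, H2bc12, H3c3 and H4c9. Both contrasts share the siControl libraries, and the overlap among all genes called lower was not counted, so this overlap is not set against it.

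siKat6a and siKat6b left the histone genes near siControl. The cluster sums were 290.8, 224.1 and 207.1 CPM in siKat6a and 167.6, 247.3 and 225.5 in siKat6b, overlapping siControl in both. MERVL was at 20.4 to 44.3 CPM in siKat6a and, in siKat6b, at 899.1, 35.0 and 946.5. edgeR called 0 of 37 cluster and 0 of 9 outside genes in either, and DESeq2 and limma-voom called 0 as well, against 0% and 0.0209% of all genes by edgeR (in siKat6b 0.0104% higher and 0.0104% lower). The siKat6a group lay above siControl without overlap in 3 of 67 cluster genes and below in 1, against 5.15% and 4.78% of genes tested. For siKat6b these were 1 and 2, against 7.87% and 9.14%. At an unadjusted p under 0.05 by edgeR there were 1 of 37 cluster genes in siKat6a and 2 in siKat6b, and 0 genes outside the clusters. Over all genes 410 of 19180 passed that cut in siKat6a and 2002 in siKat6b. H1f0 was at 87.6, 34.5 and 97.3 CPM in siKat6a and 108.2, 94.3 and 70.7 in siKat6b. H3f3a was at 684.7, 600.6 and 559.0 and at 678.0, 608.3 and 532.0 CPM.

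The cluster genes with a stem-loop were split by what the annotation places after it. The 22 genes with more than 100 bases after the loop summed to 73.3, 79.0 and 67.5 CPM with A485, against 41.5, 40.0 and 44.6 with Vehicle, without overlap. The 22 with at most 100 bases summed to 32.9, 19.1 and 32.4 against 17.3, 27.8 and 22.4, and overlapped. edgeR called 7 of 19 tested genes of the long set higher and 0 lower, and 1 of 20 higher and 2 lower in the short set, against 21.4% and 24.2% of all genes. The median log2 with A485 was 0.30 in the long set, where 11 of 19 were above 0. In the short set it was -0.47, with 4 of 20 above 0. H2ac8, H1f4 and H1f2, whose levels and limits are given above, belong to the long set. The difference between the sets was not tested. With SAHA both sums were above Vehicle, the long set at 326.0, 163.6 and 280.7 CPM and the short set at 300.5, 163.8 and 237.7. With TSA they reached 201.2, 278.0 and 251.1, and 157.0, 256.2 and 232.2. In siP300 the short set was at 23.4, 19.3 and 27.2 CPM against 43.7, 35.2 and 52.7 in siControl, without overlap, and the long set at 52.1, 53.5 and 67.8 against 84.4, 64.6 and 77.6 overlapped. In siComb the short set was at 25.5, 17.0 and 22.3 CPM and the long set at 41.4, 37.3 and 54.2, both below siControl without overlap. With SAHA 12 of 12 tested genes with an octamer window and 30 of 35 without were called higher, against 20.2% of all genes. Their median log2 was 3.23 and 3.29. With TSA 11 of 12 and 33 of 35 were called higher, against 31.6% of all genes, at medians of 3.06 and 3.46. The differences were not tested.

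**Figure D5:**
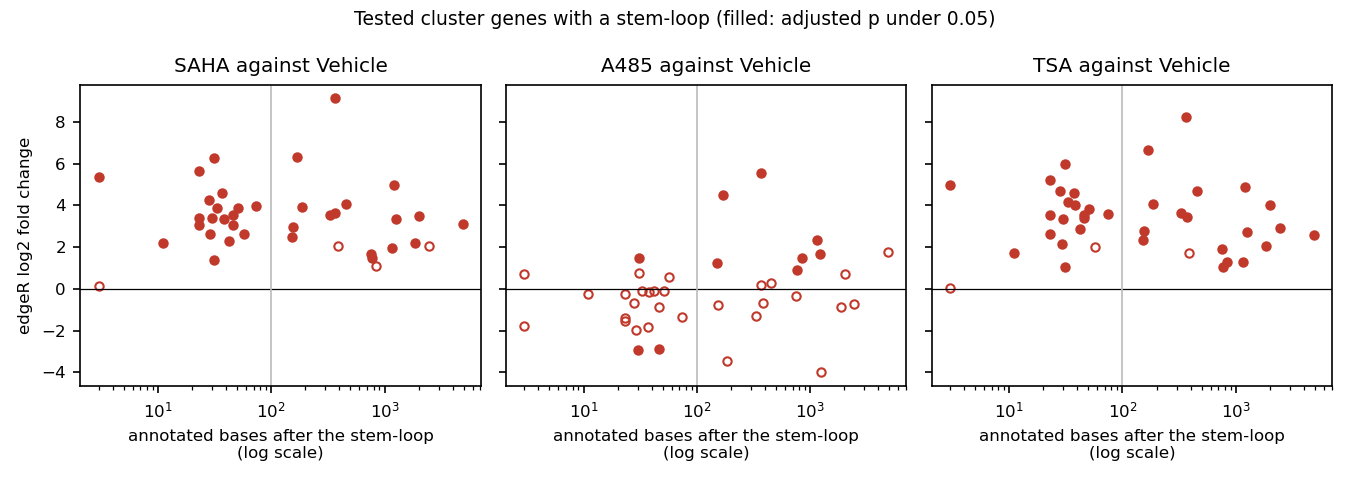
edgeR log2 fold change (y axis) of tested cluster genes with a stem-loop against the annotated bases after the loop (x axis, log scale) for SAHA, A485 and TSA, filled where adjusted p is under 0.05; the grey line marks 100 bases. With A485 the genes called higher lie mostly to the right of the line, 7 of the 8.

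Genes around histone supply were read in the same fits. Their counts are set against the share of all genes called higher and lower, which was 20.2% and 14% with SAHA, 31.6% and 26.6% with TSA, 21.4% and 24.2% with A485, 19.7% and 15.7% in siP300, and 19.6% and 17.1% in siComb. Of 19 genes of histone mRNA processing and turnover tested, 3 were higher and 6 lower with SAHA (median log2 -0.05, all genes 0.06), 6 and 6 with TSA (-0.20, all genes 0.08) and 6 and 4 with A485 (-0.23, all genes -0.06). In siP300 0 were higher and 6 lower (-0.49, all genes 0.12), and in siComb 4 and 8 (-0.47, all genes 0.09). Slbp, which binds the stem-loop, was at 776.9 ± 194.8 CPM with TSA and 530.5 ± 163.4 with A485 against 356.0 ± 29.8 with Vehicle (edgeR adjusted p = 7.15e-04 and 0.0493). With SAHA it was at 534.0 ± 129.4 and was not called (edgeR adjusted p = 0.0553). Npat, an activator of cluster histone genes, was higher with A485 (86.2 ± 3.26 against 41.5 ± 5.05 CPM; edgeR adjusted p = 1.26e-04) and was not called with SAHA or TSA. Lsm10, of the U7 particle that cuts histone pre-mRNA, was higher with A485 (124.4 ± 3.43 against 39.2 ± 5.29) and lower with TSA (9.01 ± 3.42; edgeR adjusted p = 5.69e-05 and 1.21e-05). Cstf2t, a polyadenylation factor, rose with SAHA and TSA to 23.3 ± 5.01 and 30.6 ± 6.10 from 7.88 ± 1.05 CPM, and its relative Cstf2 fell to 37.8 ± 3.73 and 24.9 ± 4.62 from 67.6 ± 7.38. All 4 were called (edgeR adjusted p = 4.50e-04, 2.35e-05, 0.00601 and 4.63e-05). Snrpd3, a Sm protein, fell with A485 (70.5 ± 3.27 against 310.5 ± 19.6 CPM; edgeR adjusted p = 8.01e-08). It fell in siP300 and siComb, to 89.3 ± 2.76 and 78.1 ± 8.76 from 214.5 ± 23.0 CPM (edgeR adjusted p = 4.72e-05 and 7.70e-06).

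Of 29 S phase genes tested, 2 were higher and 7 lower with SAHA (median log2 -0.26), 6 and 18 with TSA (-0.78) and 6 and 10 with A485 (-0.23). In siP300 1 was higher and 16 lower (-0.62), and in siComb 4 and 12 (-0.43). The medians of all genes were 0.06, 0.08, -0.06, 0.12 and 0.09 in the same order. Of all genes 14%, 26.6%, 24.2%, 15.7% and 17.1% were called lower. Tk1, thymidine kinase, fell to 128.3 ± 13.2 CPM with SAHA, 14.3 ± 4.77 with TSA and 55.6 ± 11 with A485 from 367.9 ± 10.1. Cyclin A2 (Ccna2) rose to 450.4 ± 57.1 with SAHA and 891.9 ± 73.0 with TSA from 268.1 ± 31.9. Tyms, thymidylate synthase, fell to 155.9 ± 33.9 in siP300 and 150.5 ± 12.6 in siComb from 437.2 ± 28.6. Cyclin E2 (Ccne2) rose to 74.8 ± 9.09 and 114.8 ± 12.7 from 19.9 ± 4.61 (every one of these by edgeR, adjusted p at most 0.00229).

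Of 35 chaperone and import genes, 4 were higher and 8 lower with SAHA (median log2 -0.23), 5 and 16 with TSA (-0.50) and 7 and 9 with A485 (-0.17). In siP300 4 were higher and 16 lower (-0.44), and in siComb 6 and 13 (-0.42), against the same medians and shares of all genes. The list's summed level was lower with SAHA, TSA and A485 and in siP300 and siComb than in its control without overlap, for example 5302 to 5742 CPM with TSA against 7530 to 8636. In siKat6a and siKat6b edgeR called 0 genes of these 3 lists. Ssrp1, a subunit of the H2A-H2B chaperone FACT, fell with TSA (67.9 ± 12.7 against 227.2 ± 9.44 CPM), with A485 (113.0 ± 5.64), in siP300 (44.1 ± 7.50 against 101.3 ± 18.1) and in siComb (43.7 ± 8.84). Each was called (edgeR adjusted p = 7.30e-07, 1.18e-04, 6.88e-04 and 4.55e-04). Asf1b, an H3-H4 chaperone, rose in siP300 and siComb to 160.3 ± 25.8 and 244.7 ± 12.1 from 77.3 ± 13.6 CPM (edgeR adjusted p = 3.77e-04 and 6.36e-06). Cenpa, the centromeric H3, fell with TSA to 152.3 ± 12.8 from 266.4 ± 12.7 CPM (edgeR adjusted p = 0.00129). Macroh2a1, a transcriptionally repressive H2A variant outside the symbol rule, fell with TSA to 16.9 ± 3.06 from 111.0 ± 10.8 CPM and in siP300 to 36.2 ± 3.99 from 86.1 ± 7.85 (edgeR adjusted p = 2.21e-06 and 1.62e-04).

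The remaining members gave little RNA. Of the 112, 23 had no count in any library: 4 cluster genes, 17 outside the clusters and 2 pseudogene rows. The 17 were H2al and H2ap genes. Of the 25 outside genes not tested, H2bfm had the most counts, 64 in 7 libraries, of which 34 were in the TSA libraries and 0 in Vehicle. H2ab3, a short H2A variant, had 19 counts in 5 libraries. The pseudogene rows summed to 4.98 ± 0.439 CPM in Vehicle and 8.07 ± 0.146 in SAHA. Copies limit these values: 61 of 67 cluster genes share at least 1 word of 75 bases with the transcripts of another gene, and 28 share over 50% of their words. Among the genes named above, Hist1h2ao shares 93.1%, Hist1h4n 83.4%, H2ac11 77.6% and H2bc12 72.6%, while H1f0, H2aj, H2az2 and H1f5 share 0. On the annotation, 24 of 67 cluster genes overlap another gene, 7 of them on the same strand, and strand use in counting is not given in the sources used here.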

How the data were processed

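The authors deposited whole-number counts for each gene, made with STAR 2.7.11a and featureCounts (Subread 2.0.6), per the submitters' processing notes. The notes name mm10 and GRCh38 with no roles. For annotation, strand, read pairs and reads with several matches the setting was "not given in the sources used here", and 84.5% of counts above 0 were even. RNA was polyadenylated and amplified by limited-cycle PCR, per the labels' protocols.

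Groups were taken from the labels. edgeR 4.0.16's quasi-likelihood test (TMM scaling, count filter with a minimum of 10, 1 fit for each family, Benjamini-Hochberg adjustment over all genes, threshold 0.05) was the test. It was tested on simulated data. The SE beside a log2 value is the absolute log2 value divided by the square root of that test's F statistic. It was thus derived from the test and is not a separate estimate of spread. Libraries of a group differed beyond counting noise (chi-square per degree of freedom 8.35 to 48.9 over 27 pairs), so each counted as 1 sample. Levels are TMM-scaled CPM over 27 libraries, and intervals were not used. Alternatives were DESeq2 1.42.0, limma-voom (limma 3.58.1), other scalings and filters, a replicate block and leaving out each library.

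Cluster membership was read from older names, because the new symbols do not show it. Named members were the genes outside the clusters, fixed by name (macroH2A genes included), the most abundant cluster gene of each family, in each class up to 4 called genes with the largest change in each direction among those averaging at least 5 CPM, and up to 3 genes of each list by adjusted p. Others were named after their values were seen, for their level or their place in a count. The members and lists were chosen with earlier results of these data known.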

Additional observations from a re-analysis of the deposited data

How the results depend on the processing

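Of 52 calls of named members, 42 held in every alternative run that tested the member, and the others are given with the results. Some runs, such as the filter of at least 5 CPM, left scarce named members untested. Same-numbered libraries share only a number: 2 of 21 pairs had deviations correlated over 0.1 (-0.088 to 0.131). With the replicate block, edgeR called 50 cluster and 8 outside genes for SAHA, 16 and 4 for A485, 52 and 7 for TSA, 5 and 2 for siP300, 9 and 2 for siComb, and 0 for siKat6a and siKat6b. A filter of at least 5 CPM, which tests fewer genes, left 31 cluster calls for SAHA, 32 for TSA, 2 for siP300 and 4 for siComb. The counts in this paragraph stand without the share of all genes called under each setting. They show how the number of calls moved, and under some settings the number of genes tested changed too. Only members with at least 10 counts in every control library, a set chosen after seeing the data, gave 14, 8 and 15 for SAHA, A485 and TSA. Fitting just the 2 groups gave 10 for A485, and the cause was not tested. Asking for at least 2-fold left 3, 2, 4, 0 and 1 outside calls for SAHA, A485, TSA, siP300 and siComb. Library size alone left 0 and 1 for siP300 and siComb. Leaving out single libraries gave 3 to 5 outside calls for A485, 4 to 6 cluster and 0 to 3 outside calls for siP300 and 1 to 2 outside calls for siComb.

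The log2 ratio of the cluster sums for A485 was 0.61 with DESeq2 size factors, 0.63 with library size alone and 0.65 without the most abundant member. For TSA DESeq2 size factors gave 2.96 for the cluster and 0.98 for the outside sum. For siP300 library size alone gave -0.02 (cluster) and 0.05 (outside, -0.28 with TMM), and leaving out the most abundant member gave -0.57 outside. For siComb these were 0.12 outside with library size alone (-0.14 with TMM), and -0.91 (cluster) and -0.41 (outside) without the most abundant member. The outside sums of siP300 and siComb thus turn with the scaling.

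Of 1741 refits of named members 53 changed sign, all of them of members that edgeR did not call. With single libraries left out, log2 values for A485 ran from -5.14 to 0.33 in H1f8, from -0.38 to 0.24 in H2bc4. H2bc4 for A485 gave 0.10 (limma-voom with sample weights). With single libraries left out, log2 values for siP300 ran from -0.12 to 0.10 in H2aj, from -0.16 to 0.27 in H3f3b, from -0.17 to 0.04 in H1f5, from -0.42 to 0.16 in H2bc4. H2aj for siP300 gave 0.00 (scaling by DESeq2 size factors), 0.31 (library size alone), 0.00 (DESeq2), 0.04 (filter of at least 5 CPM), 0.01 (counts halved), 0.00 (just the 2 groups). H1f5 for siP300 gave 0.24 (library size alone). H2bc4 for siP300 gave 0.19 (library size alone). With single libraries left out, log2 values for siKat6a ran from -1.56 to 0.27 in H1f8, from -0.20 to 0.04 in H2ax, from -0.36 to 0.00 in H2az1, from -0.27 to 0.05 in H3f3b, from -0.18 to 0.68 in H1f5, from -0.03 to 0.56 in H2bc4, from -0.09 to 0.28 in H3c8, from -0.13 to 0.11 in H4c9. With single libraries left out, log2 values for siKat6b ran from -0.39 to 0.03 in H1f0, from -0.20 to 1.40 in H1f8, from -0.02 to 0.18 in H2az2, from -0.05 to 0.16 in H2aj, from -0.01 to 0.15 in H3f3a, from -0.08 to 0.15 in H1f5, from -0.15 to 0.44 in H2bc4. With single libraries left out, log2 values for siComb ran from -0.06 to 0.03 in H2ax, from -0.02 to 0.36 in H3f3b, from -0.43 to 0.34 in H2bc4. H2ax for siComb gave 0.02 (scaling by DESeq2 size factors), 0.24 (library size alone), 0.02 (DESeq2), 0.02 (no filter), 0.01 (filter of at least 5 CPM). H2az2 for siComb gave 0.02 (library size alone). H2bc4 for siComb gave -0.00 (replicate block). Another 16 refits called a member that the reported test did not, among them H4c9 with A485 by DESeq2 (log2 -1.27, adjusted p = 0.0156). Scarce cluster genes, with few counts in the controls, limit what can be tested.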
